A study of Mus musculus with 6 samples.

Results

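The phagocyte NADPH oxidase and the phagosome transporter Slc11a1 were followed through 6 genes, Cybb, Cyba, Ncf1, Ncf4, Rac2 and Slc11a1, out of 19057 genes named on the array. The array carried 11 probes for them, 2 each for Cybb and Ncf1, 4 for Slc11a1 and 1 each for Cyba, Ncf4 and Rac2. The samples were GFP+ stromal-vascular cells, which the study calls adipose progenitors, sorted from the inguinal, interscapular and gonadal white fat of adult mice aged 2 to 6 months. All mice carried PPARgamma-tTA and tetO-H2B-GFP, so that the Pparg promoter drives a transactivator that switches on a green histone, and the sort keeps any stromal cell in which that reporter is or was on. Rosiglitazone mice ate chow with 0.0075% of this PPARgamma agonist for 2 months, and untreated mice ate the same chow without it. Each group had 3 arrays, each made from the pooled cells of a cohort of 3 to 4 mice, and the errors below are therefore between pools.

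The phagocyte oxidase transfers electrons from NADPH across a membrane to oxygen and so makes superoxide, which phagocytes use against ingested microbes. Its membrane core is a pair of proteins, the catalytic subunit encoded by Cybb and its partner encoded by Cyba. In resting cells the organiser Ncf1 and the modulator Ncf4 wait in the cytosol, and together with the GTPase Rac2 they move to the core when the cell is stimulated. Slc11a1 is a proton-coupled metal transporter of the late phagosome that withdraws iron and manganese from its contents. Cybb, Ncf1, Ncf4, Rac2 and Slc11a1 are known mainly from blood-derived cells, while Cyba is also the partner of other oxidases, Nox4 among them, in fibroblasts and vessel wall cells.

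These genes were chosen by platform symbol, with their log2 difference between rosiglitazone and untreated arrays already known. That difference is therefore described here for each of them and not tested. Values are log2 units of background-corrected, quantile-normalized intensity, and a probe counts as detected on an array where its deposited detection p-value is under 0.05. Detection on at least 3 of the 6 arrays kept 7 of the 11 probes, which belong to 4 of the 6 genes. The summed signal of an array lay between 9478692 and 14831319 intensity units, and 34.2% to 38.4% of 45281 probes were detected. Progenitor markers were present at mean levels of 11.35 to 11.39 on rosiglitazone and 11.15 to 11.33 on untreated arrays. None of the 10 tested passed the comparison in limma, and 0 had an unadjusted p under 0.05; Cd24a was detected on no array.

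Promoter windows from RefSeq, 250 bases before to 50 after a gene's start on GRCm38.p6, were at hand for 4 of the 6 genes. The windows of Slc11a1 and Cyba are shown because these genes were detected on all 6 arrays, and a stretch of the Cybb window is shown because it holds the same motif as the Slc11a1 window. Capitals mark GAGGAA, the core of sites bound by the myeloid factor PU.1, on either strand.
Slc11a1, chr1:74374953-74375252, plus strand: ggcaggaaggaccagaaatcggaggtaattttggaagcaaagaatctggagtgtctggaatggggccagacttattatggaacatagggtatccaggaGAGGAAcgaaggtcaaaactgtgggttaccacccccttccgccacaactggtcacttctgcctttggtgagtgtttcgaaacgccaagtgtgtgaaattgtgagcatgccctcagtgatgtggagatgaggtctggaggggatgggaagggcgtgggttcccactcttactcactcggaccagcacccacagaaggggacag
Cyba, chr8:122432891-122433190, minus strand: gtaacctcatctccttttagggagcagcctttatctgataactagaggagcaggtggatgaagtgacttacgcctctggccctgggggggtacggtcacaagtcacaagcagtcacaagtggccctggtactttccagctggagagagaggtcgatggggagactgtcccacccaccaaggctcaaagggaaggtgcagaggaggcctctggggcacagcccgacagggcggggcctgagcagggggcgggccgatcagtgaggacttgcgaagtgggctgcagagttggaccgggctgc
Cybb, chrX:9469288-9469337, minus strand: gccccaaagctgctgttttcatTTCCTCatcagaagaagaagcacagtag

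The Slc11a1 window held GAGGAA once, on the gene's strand with its first base at -152 from the start. The Cybb window held it once on the opposite strand, in the bases after the start, and the windows of Cyba and Ncf1 held it 0 times. A match is common, since 28.3% of all 32851 windows of this length hold it on either strand. GAAANNGAAA, the core of sites for interferon regulatory factors, was found 3 times in the Cybb window and 1 time in that of Ncf1, on either strand, against 3.44% of all windows with at least 1 match, and 0 times in those of Cyba and Slc11a1. AGGTCANAGGTCA, the form of site bound by PPARgamma with its partner RXR, was in none of the 4 windows and in 0.0396% of all windows. Its repeated unit, AGGTCA, occurred once, in the Slc11a1 window, and in 16.3% of all windows, which include those with the whole site. These are matches of letters and do not show binding. The window of Cyba begins from the outer end of its gene span, chr8:122424771-122432940, whereas the starts used for Slc11a1 and Cybb lie inside theirs, chr1:74375014-74386057 and chrX:9435252-9487766, so other starts of these genes were not searched. Ncf4 (chr15:78244164-78262582) and Rac2 (chr15:78559169-78572783) have no window.

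The membrane core gave 1 readable gene. Cyba, the partner subunit, had 10.96, 11.20 and 10.93 log2 units on the rosiglitazone arrays, against 12.05, 11.97 and 12.25 on the untreated arrays. All 3 rosiglitazone arrays lay below all 3 untreated ones, with a gap of 0.77 between the nearest. The means were 11.03 ± 0.15 in rosiglitazone cells and 12.09 ± 0.14 in untreated cells (SD, n = 3 each), a difference of -1.06 or 2.09-fold lower. Before any correction its intensity was 1717, 2816 and 1955 units on rosiglitazone arrays and 5579.7, 2876 and 6099.7 units on untreated arrays, so the dimmest untreated array came close to the brightest rosiglitazone array until array brightness was equalised.

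Cybb, the catalytic subunit, could not be read. Its first probe had intensities of 88.4, 90.4 and 77.4 units on rosiglitazone arrays and 100.4, 93.3 and 103.3 units on untreated arrays, and its second ran from 81.4 to 96.6 units on rosiglitazone and from 84.2 to 106.6 units on untreated arrays. Neither was detected on any of the 6 arrays, with detection p-values from 0.0652 to 0.862 for the first and from 0.176 to 0.809 for the second. Whether Cybb was expressed cannot be read from such probes, and no change is given.

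Among the cytosolic subunits Ncf4 carried a clear signal. The modulator gene had 5.38, 5.74 and 5.48 log2 units on the rosiglitazone arrays, against 8.13, 8.19 and 8.77 on the untreated arrays. Every rosiglitazone array was below every untreated array, with a gap of 2.39 between the nearest. The means were 5.53 ± 0.19 in rosiglitazone cells and 8.36 ± 0.35 in untreated cells (SD, n = 3 each), a difference of -2.83 or 7.12-fold lower. Ncf4 was detected on all 6 arrays. Its rosiglitazone values were near background, at 103.9 to 140.6 uncorrected units, and the difference was -1.74 without background correction and -1.64 on the authors' normalized table.

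Ncf1, the organiser, could not be read either. Its first probe was detected on untreated replicate 1 only, at 4.79 log2 units, and its detection p-values ran from 0.0278 there to 0.903. Its second probe was detected on 0 arrays, with detection p-values from 0.0791 to 0.952. No change is given for Ncf1.

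Rac2, the GTPase of the complex in blood cells, was dim. It had 4.53, 5.17 and 4.56 log2 units on the rosiglitazone arrays, against 6.06, 5.88 and 6.10 on the untreated arrays, and was detected on 1 of 3 rosiglitazone and all 3 untreated arrays. The groups did not overlap, with a gap of 0.70 between rosiglitazone replicate 2 and untreated replicate 2. The means were 4.75 ± 0.36 in rosiglitazone cells and 6.01 ± 0.12 in untreated cells (SD, n = 3 each), a difference of -1.26 or 2.39-fold lower. The lowest signals detected on these arrays stood at 4.65 to 4.79 log2 units, so this fold rests partly on background. The difference was -0.69 with an offset of 50, -0.46 without background correction and -0.42 on the authors' normalized table. In uncorrected units the groups overlapped, with 119.5 on rosiglitazone replicate 2 and 111.8 on untreated replicate 2.

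Slc11a1, the phagosome transporter, was seen by 4 probes that all stood lower with rosiglitazone. The brightest had 9.77, 9.88 and 9.42 log2 units on the rosiglitazone arrays, against 11.51, 11.28 and 11.59 on the untreated arrays. Its means were 9.69 ± 0.24 in rosiglitazone cells and 11.46 ± 0.16 in untreated cells (SD, n = 3 each), a difference of -1.77 or 3.40-fold lower, with a gap of 1.39 between the nearest arrays.
The second probe had 6.95, 6.85 and 6.81 log2 units on the rosiglitazone arrays, against 9.26, 8.72 and 9.26 on the untreated arrays. It was 4.62-fold lower, and like the brightest it was detected on all 6 arrays. Its difference of -2.21 became -1.68 without background correction, where that of the brightest probe was also -1.68. The order of the replicates differed between these probes, since rosiglitazone replicate 2 was the highest of its group on the brightest and replicate 1 on the second.
Slc11a1 probe 3 had 4.42, 4.59 and 4.56 log2 units on the rosiglitazone arrays, where it was never detected, against 6.66, 6.47 and 6.72 on the untreated arrays, so only a bound can be given, at least 3.76-fold lower. Probe 4 had 4.56, 4.79 and 4.35 log2 units on the rosiglitazone arrays, with 1 of 3 detected, against 6.63, 6.37 and 6.33 on the untreated arrays, a difference of -1.88. The groups overlapped on none of the 4 probes. The difference of the dim probe 4 was -0.75 without background correction and -0.68 on the authors' normalized table, and the bound for probe 3 likewise holds only on the background-corrected scale.

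In all, the 7 kept probes had rosiglitazone values below untreated values with no overlap. Over all 16442 kept probes 7.83% did so, 9.38% did the reverse, and in limma 2.38% passed an adjusted p of 0.05, with 1.89% lower. Nothing is read from the count, because this contrast was known when the genes were chosen. The filter also favoured it for Rac2 and Slc11a1 probes 3 and 4, detected on 1, 0 and 1 of 3 rosiglitazone arrays. Detection on all 3 untreated arrays was enough to keep them, so a lower rosiglitazone value was partly built in. The differences ran from 2.09-fold lower for Cyba to 7.12-fold lower for Ncf4, but this order depends on the background correction. On the authors' normalized table Rac2 had the smallest, at -0.42, Cyba stood at -1.03, and Ncf4 at -1.64 was level with the brightest Slc11a1 probe at -1.66. With 1 array left out at a time the difference stayed between -1.15 and -0.98 for Cyba, between -2.96 and -2.61 for Ncf4, between -1.44 and -1.14 for Rac2 and between -1.86 and -1.64 for the brightest Slc11a1 probe.

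**Figure D1:**
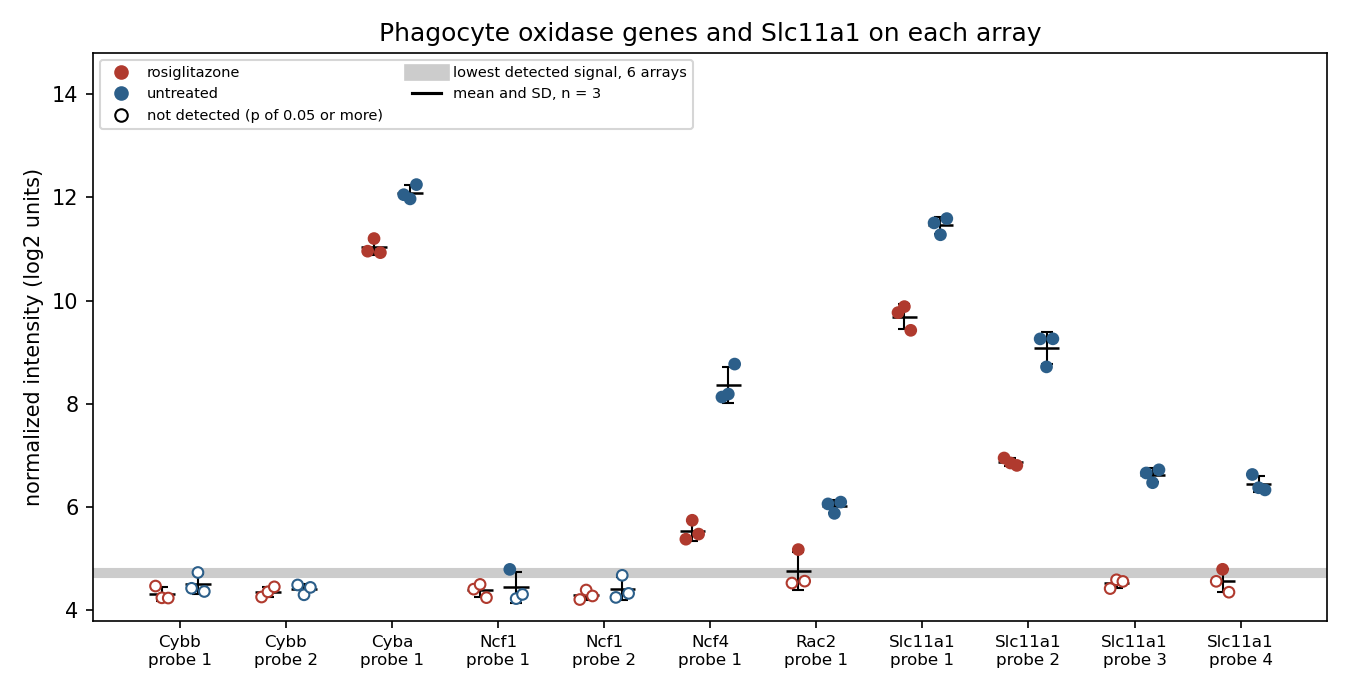
Normalized intensity in log2 units (vertical axis) of the 11 probes for the 6 genes, with rosiglitazone arrays in red to the left of untreated arrays in blue; bars are means with SD (n = 3), hollow points were not detected, and the grey band spans the lowest detected signal of the 6 arrays. The 7 kept probes of Cyba, Ncf4, Rac2 and Slc11a1 show no overlap between groups, whereas those of Cybb and Ncf1 lie in or under the band, including the 1 detected Ncf1 value of 4.79.

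The same arrays differed in markers of macrophages, which are among the phagocytes that use this oxidase. Of 14 tested macrophage and monocyte markers 13 fell with rosiglitazone in limma and 1, Cd163, did not pass. Of all 9760 genes 2.27% were lower at the same threshold. From the marker list 0 genes were detected on no array. The mean of the 14 markers was 7.17, 7.29 and 6.26 log2 units on the rosiglitazone arrays, against 9.46, 8.99 and 9.42 on the untreated arrays. The median change of the list was -2.51. On the background-corrected scale Ncf4 differed by more than 11 of the 14 markers. Cyba, Rac2 and the brightest Slc11a1 probe each differed by less than 13 of these markers. For Slc11a1 the count depends on the probe. Probes 2 and 3, at -2.21 and -2.10, fell by more than the markers Laptm5 (-1.92) and Lyz2 (-1.99), while probe 4, at -1.88, did not. Probe 3 was not detected on the rosiglitazone arrays. The order of genes and markers was not examined under other settings. It depends on values near background for Rac2 and for Ncf4, whose difference moved from -2.83 to -1.74 without background correction. In bulk samples fewer cells of a type and less RNA per cell cannot be told apart, and the part of macrophage content in the values of the oxidase genes was not tested.

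The oxidase genes are set beside the marker mean array by array, as a description, since a mean of 14 genes and single genes have different spreads. Against the untreated mean, the macrophage markers stood at -2.12, -2.00 and -3.04 on rosiglitazone replicates 1, 2 and 3. Cyba stood at -1.13, -0.89 and -1.16, and Ncf4 at -2.99, -2.62 and -2.89. Slc11a1 stood at -1.69, -1.57 and -2.03 by its brightest probe. Rac2 stood at -1.48, -0.84 and -1.45. Replicate 3, lowest for the marker mean, was also the lowest for Cyba and Slc11a1, though by 0.03 for Cyba against replicate 1, and was not the lowest for Ncf4 or Rac2, whose rosiglitazone values lie near background.

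**Figure D2:**
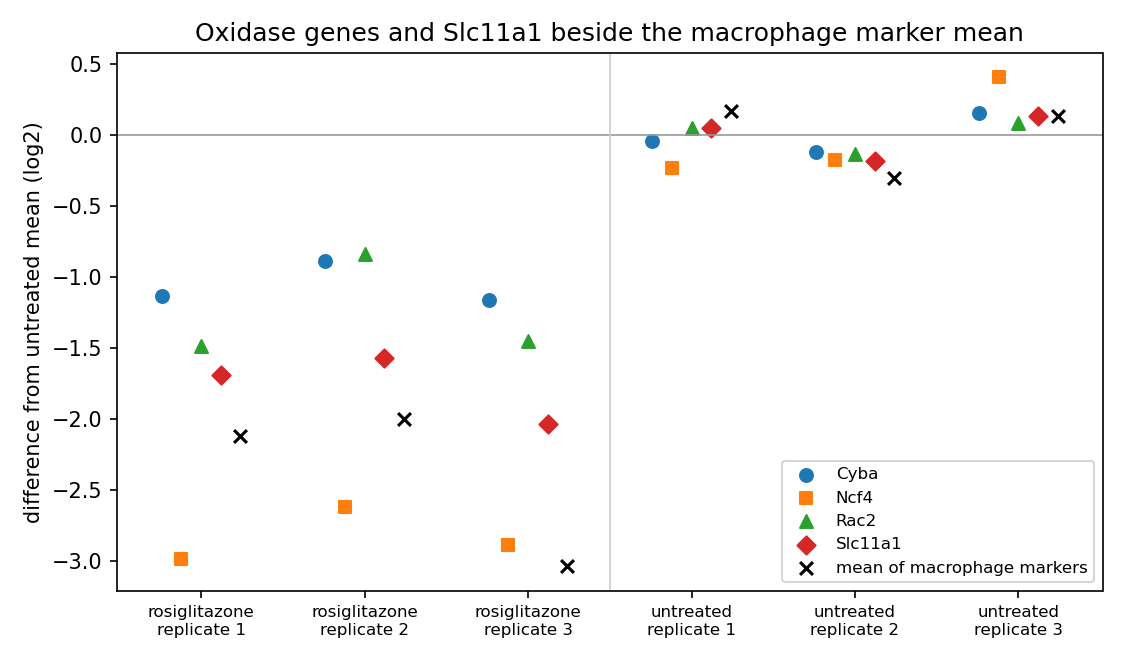
Difference of each array from the untreated mean in log2 units (vertical axis) for Cyba, Ncf4, Rac2, the brightest Slc11a1 probe and the mean of 14 macrophage markers, with the 3 rosiglitazone arrays left of the 3 untreated arrays. Each symbol is 1 array; on rosiglitazone replicate 3 the marker mean stands at -3.04, lower than on the other rosiglitazone arrays, while Cyba stands at -1.16 and Ncf4 at -2.89.

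Markers of other blood cells that use this oxidase were partly detected. Of 3 tested neutrophil markers 0 passed in limma, 0 also at an unadjusted p under 0.05, and Cxcr2 was detected on no array. Their mean ran from 4.83 to 5.60 on rosiglitazone and from 4.96 to 6.26 on untreated arrays. S100a8, a neutrophil and monocyte calprotectin gene, was detected on all 6 arrays and averaged 6.23 ± 0.73 in rosiglitazone cells and 7.10 ± 1.02 in untreated cells (SD, n = 3 each; log2 change -0.87, limma adjusted p = 0.53). The other tested neutrophil markers, Csf3r and S100a9, were dimmer, with log2 changes of -0.31 (limma adjusted p = 0.66) and 0.13 (0.94). Of the B cell markers only Cd79b was tested and it did not pass (log2 change 0.29; 0 at an unadjusted p under 0.05), with Ms4a1, Blk and Pax5 detected on no array. Markers of mural cells, which are not blood cells, also moved, with 2 of 5 tested lower, where 2.27% of all genes were. Their means were 6.73 to 7.29 on rosiglitazone and 7.71 to 8.11 on untreated arrays. The part of the blood cells or the mural cells in the results was not tested.

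The genes around the oxidase were compared by limma across all kept probes, with Benjamini-Hochberg adjusted p-values and each gene represented by its brightest kept probe. In 6 lists of oxidase relatives, regulators and phagosome genes, 85 of 119 listed genes were tested, of which 10 fell, 1 rose and 74 did not pass. That is 11.8% lower and 1.18% higher, where of all 9760 genes 2.87% passed, 2.27% lower and 0.594% higher. The lists were chosen with earlier results of these data known, so these shares are a description. The median log2 change was -0.18 over the lists and 0.04 over all genes. Of these, 4 fell when untreated replicate 1 was left out, 4 when untreated replicate 2 was, 6 without rosiglitazone replicate 2, 5 with median scaling and 2 without a detection filter.

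Other oxidase genes did not pass. Nox4, an oxidase that works with Cyba and needs no cytosolic activator, had 6.81, 7.27 and 6.61 log2 units on the rosiglitazone arrays, against 6.55, 6.97 and 6.53 on the untreated arrays. These groups overlap, with a log2 change of 0.21 ± 0.22 (SE; adjusted p = 0.78). Cybc1, a chaperone needed for the membrane core, averaged 7.31 ± 0.33 in rosiglitazone cells and 6.97 ± 0.34 in untreated cells (SD, n = 3 each; limma adjusted p = 0.65), and Noxo1, an organiser of other oxidases, had a log2 change of -0.10 (adjusted p = 0.92). Of these 3 tested genes 0 passed, and 0 had an unadjusted p under 0.05. Nox1, Nox3, Noxa1 and Duox2 were detected on no array, and Duox1 and Duoxa2 each on 1.

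The list of genes that act before or beside the oxidase held most of the falls. Of 16 tested genes 6 fell, 0 rose and 10 did not pass, with a list median of -0.96. Btk, a kinase of B cells and myeloid cells, was 3.43-fold lower (adjusted p = 0.0010), detected on 1 of 3 rosiglitazone arrays. Its log2 change shrank to -1.03 with an offset of 50, -0.72 without background correction and -0.65 on the authors' normalized table. Vav1, the blood cell exchange factor that loads Rac with GTP, had 5.80, 5.93 and 4.89 log2 units on the rosiglitazone arrays, against 7.48, 7.02 and 7.43 on the untreated arrays, 3.41-fold lower (adjusted p = 0.0061), with a log2 change of -1.77 that shrank to -0.93 without background correction and -0.86 on the authors' normalized table. Arhgdib, a blood cell inhibitor that holds Rac2 and related GTPases in the cytosol, had 8.02, 8.07 and 7.86 log2 units on the rosiglitazone arrays, against 9.44, 9.32 and 9.50 on the untreated arrays, 2.71-fold lower (adjusted p = 0.0010). The groups of both genes were apart on every array. Hvcn1, the proton channel that offsets the charge the oxidase moves, was 2.51-fold lower (adjusted p = 0.016), and its second probe passed too. Its call was lost without rosiglitazone replicate 1 or 2 and without untreated replicate 1 or 2, with adjusted p-values up to 0.098 in limma.

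The other two were Fpr2, a receptor for formylated peptides, and Itgb2, the common chain of leukocyte integrins, 2.08-fold and 2.14-fold lower (adjusted p = 0.031 and 0.038). The call of Fpr2 was kept only without rosiglitazone replicate 2 among the fits that leave out 1 array, and was lost with median scaling. That of Itgb2 was kept only without rosiglitazone replicate 1 or untreated replicate 3, and its log2 change of -1.10 shrank to -0.61 with an offset of 50 (adjusted p = 0.061), -0.41 without background correction (0.11) and -0.37 on the authors' normalized table (0.12). Prkcd and Plcg2, which relay receptor signals, missed the threshold at -0.95 (adjusted p = 0.055) and -1.17 (0.059). Leaving out untreated replicate 1 gave 3 genes past the threshold, leaving out untreated replicate 2 gave 3, and dropping the detection filter gave 2. Itgam, the partner of Itgb2, and the kinase gene Syk were detected on no array. The macrophage marker mean moved with this list, at 6.26 to 7.29 on rosiglitazone and 8.99 to 9.46 on untreated arrays, and its part was not tested.

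Phagosome genes held 3 falls. Coro1a, an actin-binding coronin of leukocytes that sits on young phagosomes, had 7.19, 7.25 and 6.64 log2 units on the rosiglitazone arrays, against 8.98, 8.54 and 9.48 on the untreated arrays. It was 3.93-fold lower (adjusted p = 0.0023), and all 4 of its kept probes passed. Of the proton pump that acidifies the phagosome, the subunits Tcirg1 and Atp6v1b2 fell, 2.10-fold and 2.06-fold (adjusted p = 0.041 and 0.020), but the other 3 kept Tcirg1 probes did not pass. The call of Tcirg1 was kept only without rosiglitazone replicate 3 among the fits that leave out 1 array, and that of Atp6v1b2 was lost without rosiglitazone replicate 1, untreated replicate 1 or untreated replicate 2. Of 24 tested genes 3 fell and 21 did not pass, with a median of -0.27, 21 negative changes and 7 unadjusted p-values under 0.05. Only 1 passed when rosiglitazone replicate 1, untreated replicate 1 or untreated replicate 2 was left out or with median scaling, against 0 without a detection filter, and 5 without background correction or with an offset of 50.

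Of the iron and metal genes 1 rose and 1 fell. Heph, a membrane ferroxidase that readies iron for export, had 11.20, 10.93 and 10.32 log2 units on the rosiglitazone arrays, against 9.58, 9.39 and 9.31 on the untreated arrays. It rose 2.63-fold (adjusted p = 0.0094), 3 of its 4 kept probes passed, and its call was lost without untreated replicate 2 (adjusted p = 0.053) and without a detection filter. Cp, the related ferroxidase ceruloplasmin, was 2.46-fold lower (adjusted p = 0.044), but its other kept probe did not pass (log2 change -1.04, adjusted p = 0.15), and the call was lost in each fit without 1 array except that without rosiglitazone replicate 3. Slc11a2, the paralog of Slc11a1 that imports iron in most cells, averaged 6.22 ± 0.53 in rosiglitazone cells and 6.62 ± 0.20 in untreated cells (SD, n = 3 each; log2 change -0.41, limma adjusted p = 0.61). Of 17 tested genes 15 did not pass, with a median of -0.18.

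Enzymes that dispose of superoxide and peroxide did not pass. Of 14 tested genes 0 passed in limma and 1 had an unadjusted p under 0.05, with a median log2 change of 0.01, 7 positive and 7 negative. The superoxide dismutase genes Sod1, Sod2 and Sod3 stood at 0.08 (adjusted p = 0.93), -0.15 (0.86) and -0.01 (0.99), and the catalase gene Cat at 0.13 (0.94).

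**Figure D3:**
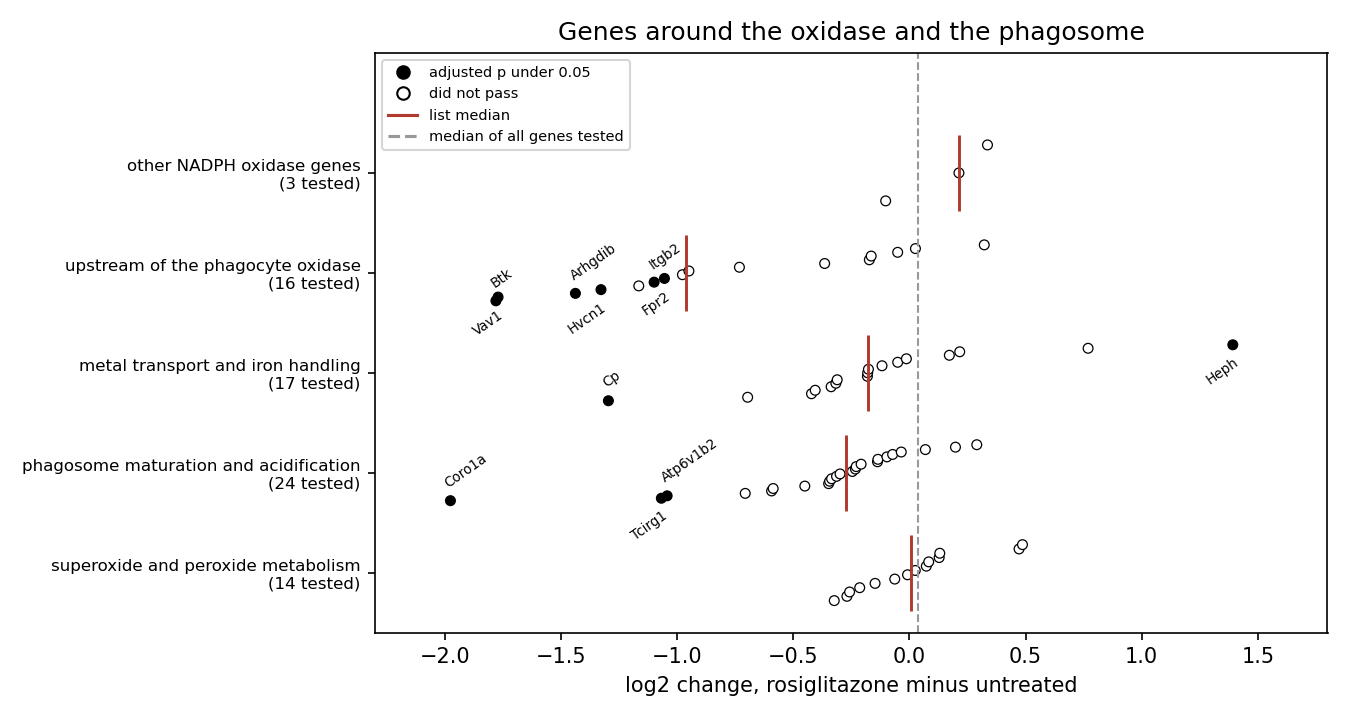
Log2 change, rosiglitazone minus untreated (horizontal axis), of every tested gene in the lists described around the oxidase and the phagosome; filled points passed an adjusted p of 0.05, red bars are list medians, and the dashed line is the median of all 9760 genes, 0.04. The list labelled upstream of the phagocyte oxidase, which includes the channel gene Hvcn1, holds 6 falls among 16 tested. The other oxidase genes and the superoxide enzymes have 0 filled points.

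Genes whose pattern over the 6 arrays was most like the mean of Cyba, Ncf4, Rac2 and Slc11a1 were found by root mean square distance between mean-centred log2 values. The nearest was Btk at 0.088 log2 units, described above. Unc93b1, which escorts nucleic acid sensing Toll-like receptors, followed at 0.126 with a log2 difference of -1.61, and H2-DMb2, a chain of the peptide loader for MHC class II, at 0.128 with -1.76. Matk, a kinase that restrains Src family kinases, stood at 0.148 and was detected on 0 of 3 rosiglitazone arrays, and Sdc3, a membrane proteoglycan, at 0.148 with -1.52. Slc11a1 itself lay 0.100 from that mean, Rac2 0.260, Cyba 0.337 and Ncf4 0.566, and the median of all other genes was 0.923. Each of these named genes is part of that mean and the other genes are not, so its nearness is partly built in. The likeness reflects the difference between the groups and is a description of these 6 arrays.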

How the data were processed

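Total RNA of 6 sorted pools was labelled as biotinylated cRNA for Illumina arrays, per the labels' protocols. The authors deposited a non-normalized table with the intensity of each probe per array and a detection p-value beside it; scanner software is not given in the sources used here. They also deposited a normalized intensity table, method not given, with which the series table was identical (largest difference 0). Background was corrected from the non-normalized table with normexp (nec, offset 16, from detection p-values), then log2 and quantile normalization (limma 3.58.1, R 4.3.3). Probes with detection p under 0.05 on at least 3 of 6 arrays were kept (16442). Groups were compared with lmFit and eBayes, Benjamini-Hochberg over kept probes, threshold 0.05. The number of arrays limits the precision; replicates are cohorts of animals.

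Symbols came from the platform annotation (34885 of 45281 probes with 1 symbol, 18 with several, 10378 unnamed here) and 34807 matched RefSeq by Entrez number. For a probe undetected on all arrays of a group, the bound uses, on each array of that group, whichever is larger, the probe's value or the lowest signal detected there. The genes and lists were chosen with earlier results of these data known. Named genes were every probe of the 6 genes, the oxidase list, per list the 4 smallest p-values in each direction past the threshold, and the 5 nearest patterns; Fpr2 and Itgb2 were added after their values were seen, as were Prkcd, Plcg2, Sod1, Sod2, Sod3, Cat, Itgam and Syk, and Slc11a2 was added as a relative. The genes of 1 of the 6 lists are not reported here singly. The code was tested on simulated data. Alternatives covered background correction, offset, normalization, source table, filter, array weights, variance model, replicate block and each array left out.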

Additional observations from a re-analysis of the deposited data

How the results depend on the processing

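Every one of 109 values of the 7 kept probes of Cyba, Ncf4, Rac2 and Slc11a1 under 16 alternatives kept its sign. Many of these values could not differ, since another filter, variance model or replicate block leaves the difference of a probe unchanged. The genes were also chosen with this difference known, so nothing is read from that count. The difference of Ncf4 moved to -1.74 without background correction, -2.18 with an offset of 50 and -1.64 on the authors' normalized table, and that of Rac2 to -0.46, -0.69 and -0.42. Leaving out 1 array gave -1.15 to -0.98 for Cyba, -2.96 to -2.61 for Ncf4, -1.44 to -1.14 for Rac2 and -1.86 to -1.64 for Slc11a1. The count of probes past the threshold, 392, was 260 with median scaling, 157 without a detection filter and 220 to 446 with 1 array left out. Pathway genes that fell, 10, numbered 5 with median scaling, 2 without a filter and 4 to 9 with 1 array left out; the 1 that rose became 0 without a filter and 0 to 1 with 1 array left out. Genes of the upstream list, 6, numbered 2 without a filter and 3 to 6 with 1 array left out. Phagosome genes, 3, numbered 5 without background correction and with an offset of 50, 1 with median scaling, 0 without a filter and 1 to 3 with 1 array left out. Iron and metal genes, 2, numbered 1 without background correction, with median scaling, on the authors' normalized table, with detection on all 6 arrays and with detection p under 0.01, 0 without a filter and 0 to 2 with 1 array left out. Where a filter was dropped more probes were tested; the cause of each other shift was not tested. Of the 11 named pathway genes past the threshold, Arhgdib, Btk, Vav1 and Coro1a kept their call in each fit without 1 array, and 9 of 11 lost it without a filter, all but Arhgdib and Btk. With the replicate number as a block 475 probes and 13 falling pathway genes passed. Same-numbered arrays had deviations correlated at 0.05, -0.01 and 0.35. The labels do not say what the number marks, and with so few arrays these correlations cannot settle whether it pairs them. Signal near background limits Ncf4 on the rosiglitazone arrays, Rac2, 2 of the 4 Slc11a1 probes, Cybb and Ncf1.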
